A study of Mus musculus with 4 samples.

Results

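The outer dynein arm docking complex was examined in retinal RNA of mouse embryos, from 2 libraries labelled wild-type and 2 labelled Foxn3KO. The complex was defined as the genes Odad1, Odad2, Odad3, Odad4 and Calaxin, chosen by gene symbol. Of these 5 genes, 3 were found by symbol among the 18471 genes of the count table (Odad1, Odad3 and Odad4). Calaxin was found by its gene identifier, ENSMUSG00000068617, under the symbol Clxn, so 4 members were measured, and all 4 passed the filter on low counts. Odad2 was not analysed here. Each library was made from the total RNA of a retina of an individual genotyped embryo at embryonic day 19. The Foxn3KO embryos were homozygous (Foxn3-/-) for the allele C57BL/6NJ-Foxn3em1(IMPC)Bay/Mmnc, in which exon 3 of Foxn3, a gene for a forkhead transcription factor, is deleted. The series concerns a transcriptional network around Foxn3 that regulates primary cilia.

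Motile cilia and sperm tails beat because dynein motors, arranged in rows of outer and inner arms, slide the microtubule doublets of the axoneme against each other. The docking complex is the rod-like assembly that anchors each outer arm at a regular spacing on its doublet. Odad1 and Odad3 (formerly Ccdc114 and Ccdc151) encode coiled-coil proteins that lie along the doublet, Odad4 (formerly Ttc25) encodes a tetratricopeptide repeat protein, and Calaxin (formerly Efcab1) encodes a calcium-binding EF-hand protein. Loss of docking proteins removes outer arms from cilia and is a known cause of primary ciliary dyskinesia in people. Retinal progenitors and neurons carry primary cilia, which are built without dynein arms.

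The stretches of DNA just upstream of the annotated starts of Odad1 and Odad3 are shown. Only these members were matched to a RefSeq promoter window. X-boxes, the binding motif of the RFX factors that regulate ciliary genes, can be looked for there. The sequences are from RefSeq on GRCm38.p6, another build than that of the counts (mm39, per the submitters' processing notes). RefSeq promoter windows were matched for 2 of the members. Each sequence is written 5′ to 3′ on the strand of the gene and ends at the base before the start, with motif matches in capitals. For Odad1 the last 30 bases are given, chr7:45924185-45924214, plus strand, a stretch that an annotated exon in GENCODE M21 reaches into. For Odad3 the 171 bases that no annotated exon covers are given, chr9:22002635-22002805, minus strand.
Odad1: ccttattggccccttGTCTCCCCAGTAACc
Odad3: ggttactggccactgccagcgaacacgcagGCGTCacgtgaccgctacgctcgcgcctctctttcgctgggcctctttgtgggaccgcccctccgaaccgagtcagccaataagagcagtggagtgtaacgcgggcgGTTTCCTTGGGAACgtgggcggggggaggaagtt

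A loose X-box was searched on both strands as GTNNCC, then 4, 5 or 6 bases of any kind, then AAC, in windows of 250 bases before to 50 bases after the start. Both windows held the form with 5 such bases, which occurs in 3.9% of all 32851 RefSeq windows, while any of the forms occurs in 9.31%. The match in Odad1 was GTCTCCCCAGTAAC, from -15 to -2 relative to the start. The match in Odad3 was GTTTCCTTGGGAAC, from -34 to -21, and it matched on both strands. Neither window held the RFX half-site GTTGCC (12.5% of windows; it can lie within an X-box) or the forkhead core TAAACA (13.4%). The forkhead-like motif GACGC, which Foxn3 is known to bind, occurs in 27.2% of windows and had 1 match in Odad3, from -141 to -137 on the opposite strand (GCGTC). These are matches of letters and do not show that a factor binds there. Among the genes with a window, any form of the X-box was found in 3 of 12 outer arm dynein subunits. It was found in 5 of 7 genes for delivery and attachment of the arm. The ruler and nexin-dynein complex had it in 4 of 10 genes and the preassembly factors in 6 of 13. A gene was counted if any of its windows matched, while 9.31% is a share of single windows. The matched genes include some that were not called or not analysed here.

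Total counts ranged from 22543531 to 29360129 per library, and 3 counts corresponded to 0.103 to 0.134 CPM (counts scaled by the TMM library size). The targeted gene Foxn3 had 97.6 and 99.8 CPM in libraries labelled wild-type and 144 and 144 CPM in libraries labelled Foxn3KO, a log2 fold change of 0.54 (edgeR adjusted p = 7.81e-08). Counts per gene do not resolve exon 3 and so do not check the deletion, and since Foxn3 was higher in the knockout group, every direction below rests on the labels. The 16 retina markers were all tested. By edgeR 4 were called higher and 3 lower, against 12.3% and 9.66% of all tested genes. By DESeq2 2 of the markers were called higher and 1 lower. The median log2 fold change of the 16 markers was 0.03. Their summed level was 3807 and 3984 CPM in libraries labelled wild-type and 3921 and 3975 CPM in libraries labelled Foxn3KO. Wild-type replicate 1 stood apart by sex-linked transcripts, with 83073 counts of Xist against 9 to 19 in the other libraries, and 0 counts of Ddx3y against 1780 to 2317. Results for the docking complex are therefore also given without that library.

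All 4 measured members of the docking complex were higher in libraries labelled Foxn3KO, by 5.18-fold to 13.7-fold. Each passed the threshold of an adjusted p under 0.05 (edgeR quasi-likelihood test, two-sided, with Benjamini-Hochberg adjustment over 17300 tested genes). Of all tested genes, 21.9% were called, 12.3% higher and 9.66% lower. A call higher by more than 2 on the log2 scale, which all 4 members reached, was made for 1.2% of tested genes. Both Foxn3KO libraries were above both wild-type libraries for each member, as they were for 29.9% of tested genes. The median log2 fold change of the 4 members was 2.95, against -0.0047 for all tested genes. In RNA from whole retinas, more cells that express a gene and more RNA per cell cannot be told apart.

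Odad4, the tetratricopeptide repeat subunit, had the highest fold change of the members. It had 62 and 67 counts in libraries labelled wild-type and 939 and 808 in libraries labelled Foxn3KO, or 2.50 and 2.47 against 32.2 and 36.1 CPM. Both Foxn3KO libraries lay far above both wild-type libraries, and the wild-type libraries were nearly equal. The mean level rose from 2.48 ± 0.0242 CPM to 34.2 ± 2.71 CPM (SD, n = 2 each), and the log2 fold change was 3.78 (SE 0.110, edgeR adjusted p = 2.28e-14).

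Odad1, one of the coiled-coil subunits, had 111 and 88 counts in libraries labelled wild-type and 1146 and 930 in libraries labelled Foxn3KO. In CPM these were 4.48 and 3.24 against 39.4 and 41.5. The groups did not overlap, and the spread between the wild-type libraries was the widest, relative to the mean, among the members. Its mean was 3.86 ± 0.875 CPM against 40.4 ± 1.54 CPM (SD, n = 2 each), which gave a log2 fold change of 3.39 (SE 0.114, edgeR adjusted p = 1.54e-13). Odad1 overlaps an antisense gene, Gm45442, and a pseudogene, Gm9712, in GENCODE M21, and whether the counting used strand is not given in the sources used here. Gm45442 had means of 0.426 and 0.577 CPM and was not called (edgeR adjusted p = 0.556), and Gm9712 was not analysed here.

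Odad3, the other coiled-coil subunit, had 226 and 288 counts in libraries labelled wild-type and 1523 and 1120 in libraries labelled Foxn3KO. The corresponding levels were 9.11 and 10.6 CPM against 52.3 and 50.01 CPM, again without overlap. From 9.86 ± 1.05 to 51.2 ± 1.62 CPM (SD, n = 2 each), the log2 fold change was 2.37 (SE 0.0822, edgeR adjusted p = 2.26e-13), the lowest among the 4 members.

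Calaxin, the calcium-binding subunit, had 244 and 271 counts in libraries labelled wild-type and 1671 and 1251 in libraries labelled Foxn3KO. In CPM this was 9.84 and 9.97 against 57.4 and 55.9, with replicates close together in both groups. Its mean rose from 9.91 to 56.6 CPM, with SDs of 0.0955 and 1.08 (n = 2 each), and the log2 fold change was 2.51 (SE 0.0718, edgeR adjusted p = 1.74e-14). An antisense gene overlapping Calaxin, Gm33696, was not analysed here.

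**Figure D1:**
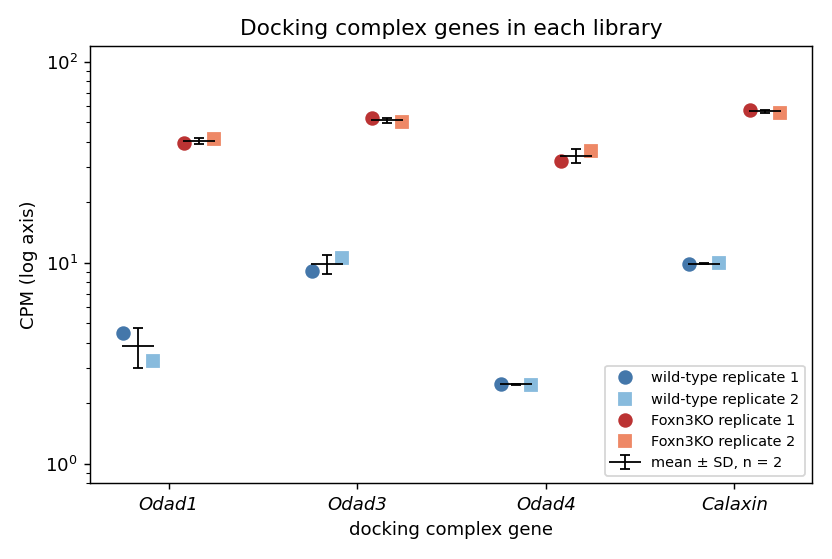
Level of the 4 measured docking complex genes in CPM (log axis) in each library, with the mean ± SD of each group (n = 2) in black. Each Foxn3KO point lies above both wild-type points of the same gene, and the 4 genes lie closer together in the Foxn3KO libraries than in the wild-type libraries.

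The summed level of the 4 members was 25.9 and 26.3 CPM in libraries labelled wild-type, and 181 and 184 CPM in libraries labelled Foxn3KO. Without wild-type replicate 1, the log2 fold changes were 3.64 for Odad1, 2.27 for Odad3, 3.78 for Odad4 and 2.51 for Calaxin, and each was called. Ranked by log2 fold change among the 17300 tested genes, Odad4 was at place 66, Odad1 at 81, Calaxin at 142 and Odad3 at 153. In libraries labelled wild-type, 24.2% to 37.7% of tested genes had a lower mean CPM than these members, and in libraries labelled Foxn3KO 57.8% to 70.6% had. The authors' deposited table gives log2 fold changes of 3.38 for Odad1, 2.36 for Odad3, 3.77 for Odad4 and 2.51 for Calaxin. The adjusted p-values in the authors' deposited table were 1.89e-103, 3.04e-88, 4.21e-99 and 7.22e-111 in the same order.

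Levels per gene length were compared with the FPKM that the authors deposited. In all 4 libraries the order was Odad3, Calaxin, Odad1 and Odad4, from high to low. In libraries labelled wild-type Odad3 had 3.61 and 4.204 FPKM, Calaxin 2.21 and 2.24, Odad1 0.732 and 0.531, and Odad4 0.405 and 0.400. Within a group, no 2 neighbours in this order overlapped. In libraries labelled Foxn3KO Odad3 had 20.7 and 19.8 FPKM, Calaxin 12.9 and 12.6, Odad1 6.45 and 6.80, and Odad4 5.23 and 5.85. The order of the fold changes was the reverse of this order of levels. The order was the same in each library with the exon-union length or the longest transcript of GENCODE M21 as the gene length.

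**Figure D2:**
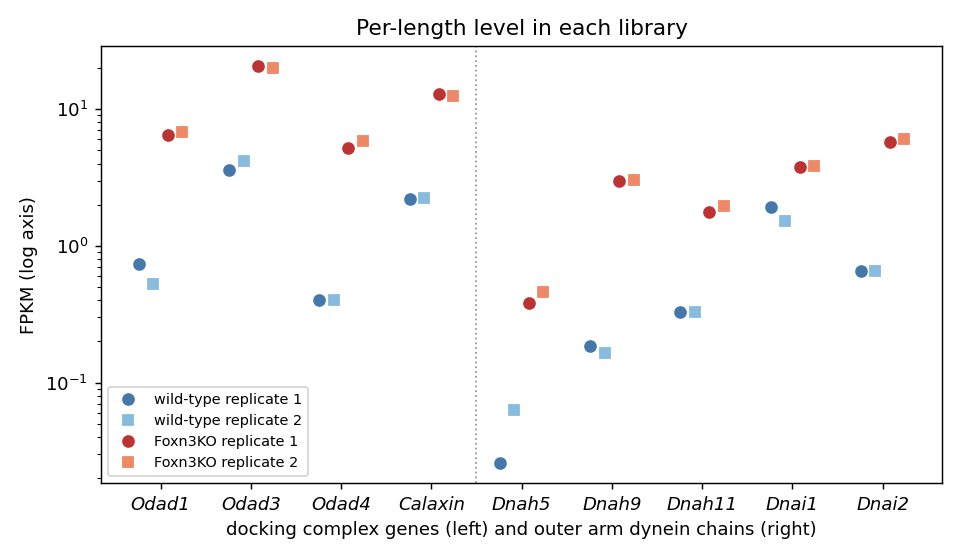
FPKM (log axis) of the 4 docking complex genes and of 5 chains of the outer arm dynein in each library. Odad3 and Calaxin are above Odad1 and Odad4 in every library, and each gene is higher in both Foxn3KO libraries than in both wild-type libraries.

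The proportions of the members to each other differed between the groups. Odad4 made up 5.82% and 5.42% of the members' summed FPKM in libraries labelled wild-type, and 11.5% and 12.99% in libraries labelled Foxn3KO. The share of Odad3 was 51.9% and 57.0% against 45.8% and 44.0%. The ratio of Odad3 to Odad4 in FPKM was 8.91 and 10.5 in libraries labelled wild-type and 3.97 and 3.39 in libraries labelled Foxn3KO. The ratio of Odad3 to Calaxin moved least, from 1.63 and 1.87 to 1.61 and 1.58. All 6 ratios between members had no overlap between the groups, but with 2 libraries a group the exact permutation test (two-sided) cannot go below p = 0.333, which was the value for each ratio (0.333 after Benjamini-Hochberg adjustment over the 6).

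**Figure D3:**
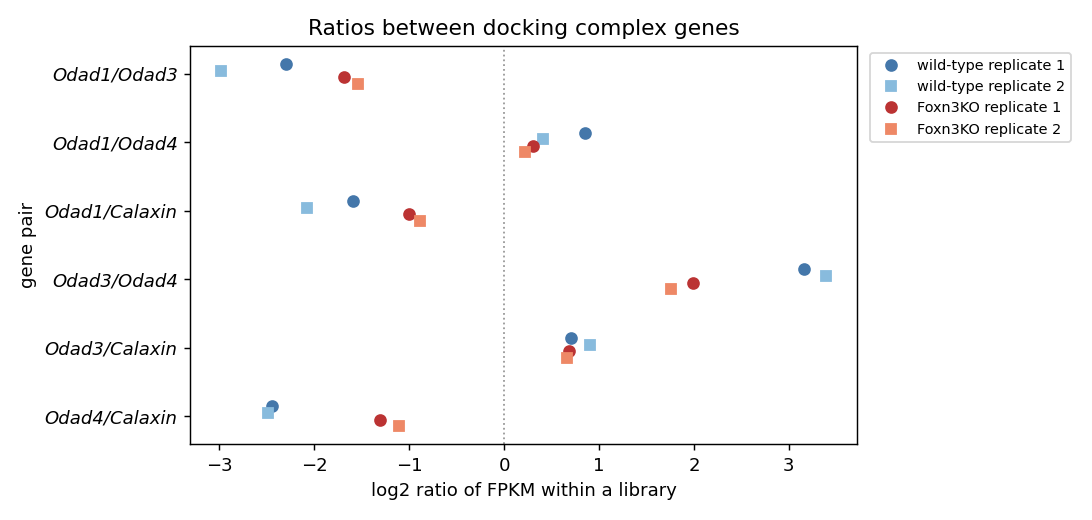
Log2 ratio of FPKM between each pair of docking complex genes within a library. Between the groups the mean log2 ratio changed by 1.03 for Odad1/Odad3, by -1.40 for Odad3/Odad4 and by 1.26 for Odad4/Calaxin, and by -0.14 for Odad3/Calaxin.

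The motor that the docking complex holds was described next. Of 16 subunits listed for the outer arm dynein, 15 were tested. Of these, 11 were called higher and none lower, against 12.3% and 9.66% of all tested genes. None of the tested genes in this list or in the 3 related lists below was lower at an unadjusted p under 0.05 in edgeR, and DESeq2 called none lower. The median log2 fold change of the 15 tested subunits was 0.76, lower than that of the docking complex. The difference between the lists was not tested. The list also holds heavy chains of sperm and a light chain that serves cytoplasmic dynein. Its median therefore does not describe the ciliary chains alone. The axonemal heavy chains Dnah9, Dnah5 and Dnah11 rose by 4.11, 3.20 and 2.51 on a log2 scale (edgeR adjusted p = 7.92e-16, 7.92e-08 and 3.02e-12). Dnah5, which cilia use along their whole length, had 10 and 27 counts in libraries labelled wild-type and 175 and 162 in libraries labelled Foxn3KO. Its log2 fold change therefore depended on the wild-type library, and was 4.004 without wild-type replicate 2. The heavy chains of sperm, Dnah8 and Dnah17, had log2 fold changes of 0.28 and -0.11 and were not called (edgeR adjusted p = 0.447 and 0.916).

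Among the intermediate chains, which link the heavy chains to the base of the arm, Dnai2 rose by 3.17 and Dnai1 by 1.15 on a log2 scale (edgeR adjusted p = 2.25e-13 and 9.99e-06). Dnai2 had 2.98 and 3.02 CPM in libraries labelled wild-type and 26.3 and 27.7 CPM in libraries labelled Foxn3KO, while Dnai1 had 5.40 and 4.23 against 10.6 and 10.7 CPM. The light chain Dynlrb2, a roadblock subunit of ciliated cells, rose by 4.11 on a log2 scale (edgeR adjusted p = 6.06e-14). Its paralog Dynlrb1, which serves cytoplasmic dynein, had a log2 fold change of 0.06 and was not called (edgeR adjusted p = 0.403). Smaller rises were called for Dnal1 (0.95), Dynlt2b (0.76), Dnal4 (0.59), Dynll1 (0.34) and Dynll2 (0.14). The call for Dynll2 (edgeR adjusted p = 0.0188) was lost without Foxn3KO replicate 1 (0.342) or without Foxn3KO replicate 2 (0.171). Dynlt1b had a log2 fold change of -0.22 and was not called (edgeR adjusted p = 0.446), and Nme8 was not analysed here.

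Per length, the heavy chains were below the docking genes in every library, and their ratios to Odad3 differed in how they moved. Dnah9 was at 0.0509 and 0.0389 of the FPKM of Odad3 in libraries labelled wild-type, and at 0.143 and 0.153 in libraries labelled Foxn3KO. Dnai1 went the other way, from 0.536 and 0.361 to 0.183 and 0.194. The ratio of Dnah11 to Odad3 overlapped between the groups, with 0.0908 and 0.0779 against 0.0856 and 0.0994. Over these 5 ratios of a dynein chain to Odad3, the exact permutation p (two-sided) was 0.333, the smallest possible, for Dnah5, Dnah9, Dnai1 and Dnai2 and 0.667 for Dnah11; none was below 0.416 after Benjamini-Hochberg adjustment.

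A list of 9 genes for the delivery of outer arms and their attachment beside the docking complex had 8 tested members. Of these, 6 were called higher and none lower, against 12.3% and 9.66% of all tested genes. The median log2 fold change of the list was 1.43. Pierce1 and Pierce2 encode proteins inside the doublet that outer arms need for attachment. Pierce1 had 6 and 11 counts in libraries labelled wild-type and 254 and 212 in libraries labelled Foxn3KO, a log2 fold change of 4.77 (edgeR adjusted p = 9.67e-11) whose size rests on few wild-type counts. Pierce2 rose by 1.42 on a log2 scale (edgeR adjusted p = 1.29e-09), from 11.3 and 10.1 CPM to 28.0 and 29.4 CPM. Cfap53 and Mns1, also inside the doublet and known to bind docking proteins, rose by 2.33 and 0.42 (edgeR adjusted p = 5.52e-06 and 2.66e-05).

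Ccdc103, a factor for the attachment of dynein arms, rose by 2.77 on a log2 scale (edgeR adjusted p = 1.08e-08), and Lrrc56, which takes part in the transport of dynein arms, by 1.44 (edgeR adjusted p = 2.92e-11). Dnaaf9, which holds packaged outer arms before delivery, had 106 and 109 CPM in libraries labelled wild-type and 110 and 106 CPM in libraries labelled Foxn3KO. Its groups overlapped and it was not called (log2 fold change 0.01, edgeR adjusted p = 0.939; the sign changed under total count scaling). Ccdc63, the paralog of Odad1 that is known from sperm, had 28 and 10 counts in libraries labelled wild-type against 16 and 12 in libraries labelled Foxn3KO. It was not called (log2 fold change -0.43, edgeR adjusted p = 0.602), and its sign changed to 0.56 without wild-type replicate 1. Daw1 was not analysed here.

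**Figure D4:**
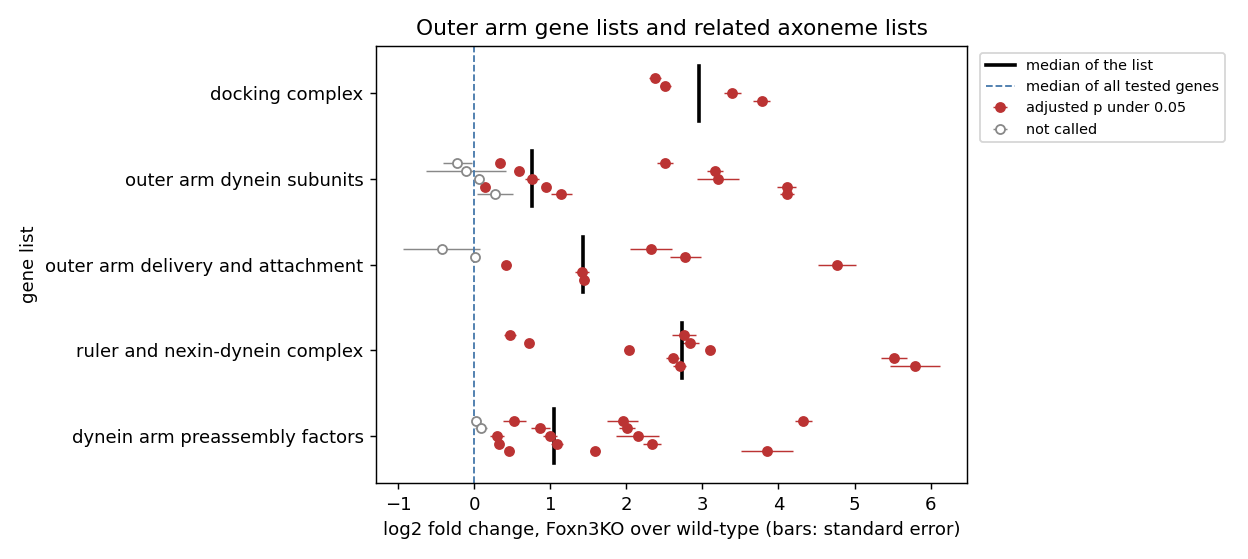
Log2 fold change of each tested gene, Foxn3KO over wild-type, with its standard error, for the docking complex and 4 related lists. Red points passed an adjusted p under 0.05, black bars are list medians, and the dashed line is the median of all tested genes; the 4 docking genes lie between 2.37 and 3.78.

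Neighbouring structures of the axoneme were used for comparison. The ruler proteins Ccdc39 and Ccdc40, which set the spacing of inner arms, and the nexin-dynein regulatory complex had 10 tested members of 13. All 10 were called higher, against 12.3% of all tested genes, and their median log2 fold change was 2.73. The 3 with the smallest p were Ccdc40 (3.11), Ccdc39 (2.03) and Drc1 (5.52), with edgeR adjusted p of 1.88e-16, 8.87e-15 and 5.06e-14. Of 17 factors that preassemble dynein arms in the cytoplasm, 16 were tested, with a median of 1.04. Of these, 14 were called higher and none lower, against 12.3% and 9.66% of all tested genes. Zmynd10 (4.33), Cfap298 (1.59) and Pih1d2 (2.33) had the smallest p of that list (edgeR adjusted p = 5.79e-15, 3.24e-12 and 7.52e-11).

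Regulators of ciliary genes were called higher in 6 of 10 tested members of 13 listed, against 12.3% of all tested genes. Their median log2 fold change was 0.43. The 6 include the targeted gene Foxn3 itself (0.54), whose counts do not check the deletion. Foxj1, the forkhead factor that switches on motile cilia genes, had 7.70 and 8.32 CPM in libraries labelled wild-type and 177 and 175 CPM in libraries labelled Foxn3KO. Its log2 fold change of 4.45 exceeded that of each docking gene. Rfx2, Rfx1 and Rfx3, whose proteins bind X-boxes, rose by 1.41, 0.46 and 0.40 on the log2 scale.

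By profile over the 4 libraries, the genes most like the mean of the docking members were Spag8, Lrrc23, Ccdc40, Ccdc87 and Lrguk. The measure was the root mean square difference between centred log2 CPM profiles, which was 0.0319, 0.0392, 0.0544, 0.0665 and 0.069 for them and 0.238 to 0.373 for the members themselves. Spag8 encodes a protein inside axonemal doublets, and it had 40 and 42 counts in libraries labelled wild-type against 377 and 283 in libraries labelled Foxn3KO. Lrrc23, a radial spoke gene, had 10.2 and 9.16 CPM against 79.6 and 81.0 CPM. Profiles over 4 libraries mainly reflect the size of the fold change.

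The genes next to the docking members on their chromosomes were compared with them. Beside Odad1, Emp3 had a log2 fold change of 0.59 and was not called (edgeR adjusted p = 0.135), and Nomo1 rose by 0.24 (0.0141). Beside Odad3, Rgl3 fell by 0.27 and Prkcsh rose by 0.15 (edgeR adjusted p = 0.00677 and 0.0255). Beside Odad4, Acly rose by 0.15 and Cnp fell by 0.32 (edgeR adjusted p = 0.013 and 0.00144). Beside Calaxin, Snai2 and Ube2v2 had log2 fold changes of -0.52 and -0.12 and were not called (edgeR adjusted p = 0.164 and 0.281). Across these 8 neighbours the log2 fold changes thus lay between -0.52 and 0.59, while those of the docking genes were 2.37 to 3.78.

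Markers of other tissues were followed because tissue with motile cilia or from nearby could be in a dissected sample. For comparison with the counts below, 12.3% of all tested genes were called higher and 9.66% lower. None of 10 airway markers was analysed here. Of 10 choroid plexus markers, 7 were tested, with 2 called higher (Folr1 and Aqp1) and 2 lower (Ttr and Clic6), and their summed level was 17.2 and 21.8 CPM in libraries labelled wild-type and 18.4 and 18.7 CPM in libraries labelled Foxn3KO. Of 8 ependymal markers, 4 were tested and 3 called higher (Ak7, Dynlrb2 and Fam183b, listed as Cfap144), all 3 of them cilium genes. Their summed level was 5.81 and 6.29 CPM against 134 and 123 CPM, and Calml4, the other one, was not called (edgeR adjusted p = 0.956). The part of such tissue in the rise of the docking genes was not tested. Testis germ cell markers had 2 of 10 tested, neither of them called, and their summed levels overlapped (1.57 and 2.50 against 1.75 and 3.17 CPM). Of 10 pigment epithelium markers, 8 were tested and 3 called lower, with summed levels of 87.6 and 115 against 72.8 and 73.8 CPM.

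Lens markers moved with the groups: 8 of 11 were tested and 7 called higher by edgeR, against 12.3% of all tested genes. DESeq2 called 3 of the lens markers higher. Their summed level over the 8 tested was 7.74 and 63.9 CPM in libraries labelled wild-type and 264 and 262 CPM in libraries labelled Foxn3KO. Between the wild-type libraries, in which the lens sums differed widely, the summed level of the docking members was 25.9 and 26.3 CPM. The part of lens tissue in the rise of the docking genes was not tested.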

How the data were processed

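RNA sequencing libraries from 4 retinas, 2 per group, were compared; groups and replicate numbers come from the titles. The deposited table holds raw read counts per gene, with FPKM values, a mean normalized signal, log2 fold changes, p-values and adjusted p-values that the authors computed. Per the submitters' processing notes the build was mm39 and DESeq2 was used. The aligner, counter, annotation, and use of strand and of molecular identifiers are not given in the sources used here. Genes below a sum of 16 counts over the libraries were not analysed here.

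A repeated identifier was dropped. filterByExpr left 17300 of 18471 genes, and counts were scaled by TMM; the test was that of edgeR 4.0.16 under R 4.3.3 (edgeR 4 quasi-likelihood fit, genotype only, Benjamini-Hochberg over all tested genes, threshold 0.05). The procedure was tested on simulated data. Standard errors are the absolute log2 fold change over the root of F. Alternatives used DESeq2 1.42.0, limma-voom (limma 3.58.1), other scalings and filters, the earlier edgeR fit, the replicate block and leaving out each library. Limits of 3 counts cover counting error only. Replicates differed by more than sampling noise, with a chi-square per gene that averaged 9.47 in wild-type and 1.85 in Foxn3KO. The wild-type average takes in the sex-linked Xist (83073 and 17 counts) and Ddx3y (0 and 2203 counts). It therefore does not give the spread of a typical gene, and the 2 averages are not directly comparable.

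The members, the 13 lists and the tests were chosen with earlier results of these data known. Named were all listed docking, outer arm, and delivery and attachment genes, the 3 with the smallest p of the ruler and nexin-dynein complex and of the preassembly factors, Foxn3, Foxj1, Rfx1, Rfx2 and Rfx3, Xist and Ddx3y, and the 5 genes nearest in profile. Called markers of other tissues and chromosomal neighbours were named after their values were seen.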

Additional observations from a re-analysis of the deposited data

How the results depend on the processing

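The 4 docking members were called under each of the 8 alternatives with all libraries and each time a library was left out. With all libraries their log2 fold changes ranged over 3.37 to 3.41 for Odad1, 2.35 to 2.38 for Odad3, 3.76 to 3.78 for Odad4 and 2.49 to 2.52 for Calaxin, with a largest adjusted p of 4.04e-11. Leaving out a library gave 3.17 to 3.64, 2.27 to 2.49, 3.70 to 3.86 and 2.50 to 2.54; there the lone sample of a group is assumed to vary like the other group.

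Of all tested genes 3795 were called (21.9%), and 2437 with DESeq2; the cause was not tested. Leaving out a library gave 2333 (without Foxn3KO replicate 2) to 5097 (without wild-type replicate 2), and 2359 without Foxn3KO replicate 1. Total count scaling moved the share of higher calls from 55.9% to 48.2% and the median log2 fold change of all genes from -0.0047 to -0.0251, and turned Dnaaf9 to -0.0132. Genes near 0 or with few counts took another sign without 1 of the libraries: Dnah17 (-0.526 to 0.426), Dnaaf9 (-0.0147 to 0.0303) and Ccdc63 (-1.05 to 0.557).

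Whether the replicate numbers pair the samples is not given by the titles. The correlation of replicate differences across genes was -0.00825, which cannot decide this, since each group gives a single difference. The fit with the replicate block called 4222 genes, and the 4 members among them. Using the longest transcript of GENCODE M21 as gene length, an alternative chosen after seeing the data, raised the FPKM of Odad1 in wild-type from 0.631 to 1.33. The planned use of an annotation of the table's own build was not run, since the one at hand is of GRCm38. With a prior count of 0.5, 4 of the 5 genes nearest in profile were the same.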

Other observations

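Among the 10 genes whose profile lay nearest to that of the docking complex, 2 that are known for other roles are given here, chosen after their values were seen. Nid1, which encodes the basement membrane protein nidogen, had 137 and 128 counts in libraries labelled wild-type and 1135 and 867 in libraries labelled Foxn3KO (log2 fold change 2.93, edgeR adjusted p = 8.49e-14). Klf4, a zinc finger transcription factor gene, had 20 and 23 counts against 235 and 171 (log2 fold change 3.24, edgeR adjusted p = 1.67e-09). Both Foxn3KO libraries were above both wild-type libraries for each gene.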
